A study of Homo sapiens with 6 samples.

Results

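Mediator is the large coactivator complex that links transcription factors bound to DNA with RNA polymerase II at promoters. Its head and middle modules contact the polymerase, the tail receives activators, and a detachable kinase module built around CDK8 and cyclin C controls access of the polymerase to the complex. The genes described here encode 6 subunits of the core complex, MED17, MED18 and MED30 of the head and MED7, MED10 and MED21 of the middle. They were selected by name, as the start sites in the density tables whose gene symbol is one of these 6, and make up 6 of the 3000 transcription start sites (TSSs) in those tables. The study asks about nuclear roles of CFAP20, a protein known from cilia, and also uses cells that lack both CFAP20 and CCNC, the cyclin C gene of the Mediator kinase module. CCNC is not analysed here.

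The cells were RPE1, an immortalised human retinal pigment epithelium line, in a derivative labelled iCas9 p53/puro-dKO, so that inducible Cas9 and the loss of p53 and of puromycin resistance are common to all samples. Chromatin immunoprecipitation sequencing (ChIP-seq) with an antibody against the TY tag was carried out in 3 WT samples, which carry no TY tag, and in 3 samples of CFAP20-KO + TY-CFAP20 cells, called TY-CFAP20 below. All samples were untreated. With no tag in WT, its density shows what the antibody recovers without a target. The labels do not say whether the TY-CFAP20 cells are a single clone or how strongly the tagged protein is expressed. Of 11 pigment epithelium markers, 4 are in the authors' list of start sites and 3 have a value for nascent RNA, measured by bromouridine labelling (BrU-seq) in WT gene bodies. These were OTX2 at 10.0, MITF at 1.40 and RLBP1 at 0.235, in the authors' unstated units, while 3 of 6 markers of other lineages lay between 0.0192 and 0.852.

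Values are the authors' averages over the samples of each group, normalised to Drosophila spike-in chromatin, so no SD, n or p-value can be given for a gene. Density below means the average over positions from -500 to 500 bp around a TSS, and a difference is TY-CFAP20 minus WT. Library totals are unknown. In each group the deposited values can be written with 3 steps, each taken a whole number of times, as 3 libraries with a factor each would give, and this bounds the depth. Within 500 bp of the Mediator TSSs the WT averages corresponded to 7.51 to 44.9 overlapping reads or fragments at a position, and the TY-CFAP20 averages to 11.2 to 47.6. In TY-CFAP20 the arithmetic of the steps also separates a single library, with a step of 0.0425, from the other two. Over all 3003000 values the remainder was never negative and never an impossible sum, but the way the steps were found fixes this outcome, so it is no check. The separated count jumped by more than 10 between neighbouring positions in 0.00567% of pairs. This separation was chosen after the data were seen, and which replicate the library is cannot be told.

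Promoter sequences are shown for the 4 members with an entry in the RefSeq promoter table (GRCh38.p14). MED18 and MED7 were taken because they had the highest and the lowest difference among these 4. MED10 and MED17 were taken because an annotated start of another gene lies close to their TSSs. Each sequence is the longest run of the 250 bases before the RefSeq start that lies outside annotated exons, 5′ to 3′ on the gene's strand. Capitals mark matches to any of 7 short motifs, searched on both strands: TATAAA (the TATA box), CCAAT (the CCAAT box), GGGCGG (a GC box), CCGGAAG (an ETS-type motif), TGACGTCA (the cyclic AMP response element), TGCGCATGC (an NRF1-type motif) and AAGATGGCG (a YY1-type motif). None of these motifs contains another, and matches in capitals on the opposite strand appear as the reverse complement.
MED18 (chr1:28328790-28329001, plus strand): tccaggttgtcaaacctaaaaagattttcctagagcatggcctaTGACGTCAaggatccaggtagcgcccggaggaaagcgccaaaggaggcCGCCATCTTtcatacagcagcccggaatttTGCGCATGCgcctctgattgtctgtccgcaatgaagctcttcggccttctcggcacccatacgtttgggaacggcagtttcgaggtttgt
MED17 (chr11:93784032-93784226, plus strand): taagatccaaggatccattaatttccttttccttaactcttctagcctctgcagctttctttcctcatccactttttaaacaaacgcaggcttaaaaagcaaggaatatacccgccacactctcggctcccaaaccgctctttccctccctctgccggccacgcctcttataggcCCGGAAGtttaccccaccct
MED10 (chr5:6378572-6378673, minus strand): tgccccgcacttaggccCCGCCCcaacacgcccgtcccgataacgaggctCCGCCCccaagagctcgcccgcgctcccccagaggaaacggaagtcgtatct
MED7 (chr5:157143060-157143115, minus strand): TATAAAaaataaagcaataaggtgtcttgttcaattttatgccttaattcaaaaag

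In the MED18 stretch, TGACGTCA, then AAGATGGCG on the opposite strand, then TGCGCATGC begin 206, 158 and 128 bases before the RefSeq start. Over all 35116 promoters of 300 bases in the table, 1.85%, 1.75% and 1.56% hold these motifs. MED18 also holds CCGGAAG outside the printed stretch, beginning 21 bases before the RefSeq start. The printed MED10 stretch holds 2 of the 3 GGGCGG matches of that promoter (44.9% of all promoters hold the motif). The MED17 stretch holds 1 of its 2 CCGGAAG matches, held by 10.3% of promoters. The MED7 stretch begins with TATAAA, found in 11.5% of promoters, but it lies 250 bases before the RefSeq start of that entry and 69 bases downstream of the TSS in the authors' table. Outside the printed stretch, the same entry holds CCAAT (34.6% of promoters) and CCGGAAG, beginning 54 and 14 bases before its start. A further RefSeq entry of MED7, with another start, also holds GGGCGG, 38 bases before that start. Each match is a run of letters and was not tested as a binding site.

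All 6 Mediator TSSs had a higher density in TY-CFAP20 than in WT, as did 91.2% of all 3000 TSSs, though MED7 turned lower once TY-CFAP20 was divided by the flank ratio of the same TSS (-0.182) or of 11 neighbouring TSSs (-0.0354). Those divisions brought the median difference of all TSSs to 0.385 and 0.389, and division by the flank ratio over all TSSs to 0.398. As deposited, the median difference of the 6 was 0.533, against 0.571 over all TSSs, whose 25th and 75th percentiles were 0.267 and 0.846. Summed over the members, TY-CFAP20 stood at 1.65 times WT. Folds were taken after adding 0.668 to both groups, which is the median density of WT in the flanks (the outermost 1 kb on each side of the 5 kb up- and downstream). On that scale 2 of the 6 were at least 1.5-fold higher, MED18 and MED30, against 34.9% of all TSSs. These shares and the median lie near those over all TSSs. The mean difference over the 6 was highest at -70 bp, where it reached 1.28, but in the separated TY-CFAP20 library alone it was highest at 2.79 kb. Over all TSSs it was highest at -20 bp, where it reached 0.785. These heights are not comparable, since a mean of 6 varies more between positions than a mean of 3000. Averaged from -500 to 0 bp, the members had 0.599 against 0.530 over all TSSs. From 0 to 500 bp they had 0.598 against 0.602.

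**Figure D1:**
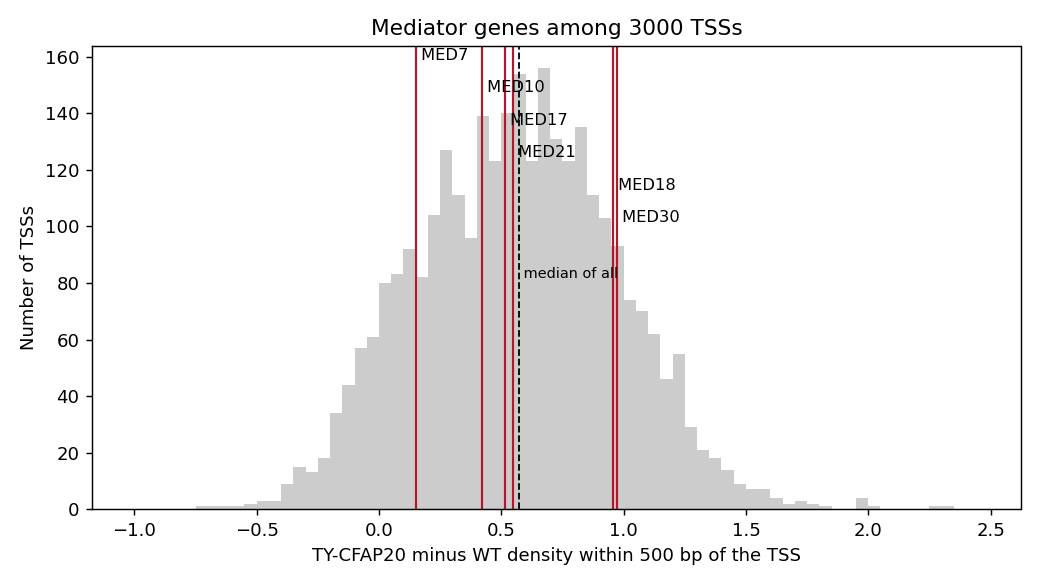
Histogram of TY-CFAP20 minus WT density within 500 bp for the 3000 TSSs (x axis, density; y axis, number of TSSs), with a red line for each Mediator gene and a dashed line at the median. MED7 (0.152, below 0 with the scalings by flanks of its own or neighbouring TSSs) lies in the lower part. MED10 (0.420) lies under the median of 0.571, MED17 and MED21 closer under it, and MED18 and MED30 together in the upper part.

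Of the head module, MED30, a subunit found in animals but not in budding yeast, had the largest difference of the 6. Its TSS is at position 117520713 of chromosome 8 (plus strand, hg38), which is also the start of its MANE Select transcript, the reference transcript agreed by Ensembl and RefSeq. The WT average was 1.05 and the TY-CFAP20 average 2.02, and the difference of 0.973 ranked 488 of 3000. WT density was high here too, at percentile 90.2 of all TSSs, and its flanks, at 0.945 for WT and 0.981 for TY-CFAP20, were the highest of the 6 genes. The TY-CFAP20 summit lay at 230 bp with a height of 3.17, and WT had a smaller summit of 1.64 at 190 bp (running means over 11 positions). The difference was highest upstream of both, at -60 bp, with 2.45 in TY-CFAP20 and 0.585 in WT.

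The MED30 difference was unevenly spread over the TY-CFAP20 libraries. The separated library stood at 1.14, which is 0.0939 above the WT average, and the mean of the other two at 2.46, which is 1.41 above it. Over all TSSs the median differences were 0.314 for the separated library and 0.683 for the other two, so a lower value in that library is general, but at MED30 the gap of 1.32 between them was larger than the median gap of 0.348. In relation to its own flanks, MED30 stood at 1.23 in the separated library and 2.44 in the other two. The 1.5-fold excess of MED30 therefore rests on the other two libraries.

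MED18, which with MED8 and MED20 forms the movable jaw of the head, had almost the same difference as MED30. Here the separated library and the mean of the other 2 nearly coincided, though those 2 are not known singly. The MED18 TSS is at position 28329038 of chromosome 1 (plus strand), 2 bp before its MANE start. WT had a density of 0.726 and TY-CFAP20 one of 1.68, which gives a difference of 0.955 and a ratio of 2.31, the highest of the 6. WT did not rise over its own flanks at MED18 (0.998 times), while TY-CFAP20 stood at 2.26 times its flanks. The separated library was at 1.66 and the other two at 1.69, so that their differences from WT were 0.930 and 0.967. In the separated library this placed MED18 at percentile 95.1 of all TSSs, and in the other two at 71.5.

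The MED18 signal was a narrow summit at -40 bp with a height of 3.21 in TY-CFAP20, where WT stood at 0.984. This position lies within the printed promoter stretch, near its 3′ end and downstream of the 3 motif matches printed there. The CCGGAAG match outside that stretch lies downstream of the summit. The library shares differed on either side of the TSS: from -500 to 0 bp the separated library had 1.48 and the other two 2.10, and from 0 to 500 bp 1.85 and 1.30. Agreement over the whole window thus did not extend to its upstream and downstream parts.

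MED17 is a central scaffold of the head module. Its TSS (chromosome 11, position 93784227, plus strand) lies 55 bp before the MANE start, and a transcript of TAF1D, a gene of the RNA polymerase I machinery, starts on the opposite strand 164 bp downstream. The WT average was 0.968 and the TY-CFAP20 average 1.48, with a difference of 0.515 at percentile 44.6. The separated library stood at 1.30 and the other two at 1.57, both above WT. The TY-CFAP20 profile had no single summit: a first maximum of 2.08 lay at -250 bp, and the largest difference in the inner 2000 bp on each side, 1.29, lay at 1800 bp inside the gene. WT itself reached 1.85 at 580 bp.

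**Figure D2:**
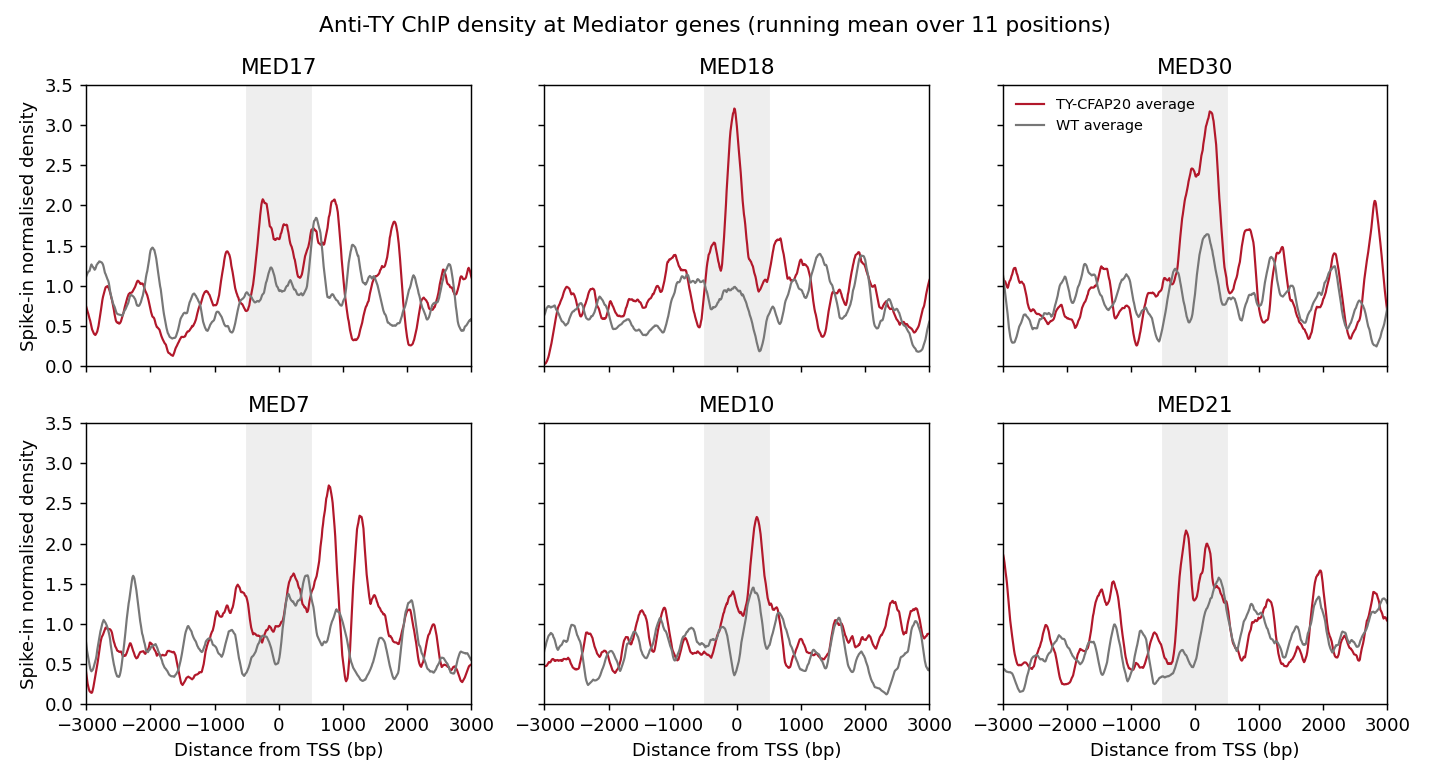
Spike-in normalised anti-TY density (y axis, running mean over 11 positions 10 bp apart) against distance from the TSS in bp for the 6 Mediator genes. Red is the TY-CFAP20 average and grey the WT average, with the window within 500 bp shaded. MED18 and MED30 show summits above 3 inside the window, and MED7 has its highest TY-CFAP20 density downstream of it, at 780 bp.

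In the middle module, MED7 had the smallest difference of the 6 within the TSS window and a large one further into the gene. MED7 forms with MED21 a hinge of the middle module. Within 500 bp of its TSS (chromosome 5, position 157143184, minus strand) the WT average was 0.972 and the TY-CFAP20 average 1.12, with a difference of 0.152 at percentile 17.5. The separated library was below WT here, at 0.827, and the other two above it, at 1.27. From 500 to 1500 bp downstream, WT stood at 0.738 and TY-CFAP20 at 1.66, and the difference of 0.921 ranked 110 of 3000 for that interval, where the median over all TSSs was 0.239. The separated library had 0.973 and the other two 2.001 in this interval, which was singled out after its values were seen. Summits in TY-CFAP20 lay at 780 bp, at a height of 2.72, and the difference was highest at 1.29 kb (2.33 in TY-CFAP20, 0.298 in WT).

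The TSS used for MED7 lies 319 bp upstream of its MANE start, the largest such distance of the 6. A transcript of HAVCR2, an immune receptor, also has an annotated start 315 bp downstream of it on the same strand. With the window centred on the MANE start, an alternative added after the data were seen, the MED7 difference was 0.445 and those of the other 5 members lay between 0.436 and 0.973. The 2 maxima at 780 bp and 1.29 kb lie downstream of the MANE start as well.

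MED10, a small subunit of the hook at the end of the middle module, was the most transcribed of the 6 and had the second smallest difference. Its TSS is at position 6378594 of chromosome 5 (minus strand), 47 bp before the MANE start, and an unnamed non-coding RNA gene (ENSG00000287031) starts 80 bp upstream on the opposite strand. TY-CFAP20 reached 1.31 where WT had 0.889, a difference of 0.420 at percentile 36.4. The mean difference was 0.589 from 0 to 500 bp and 0.245 from -500 to 0 bp. Both averages had their summit inside the gene, TY-CFAP20 of 2.33 at 310 bp and WT of 1.45 at 250 bp, while the difference itself was highest just upstream, at -50 bp (1.38 in TY-CFAP20, 0.383 in WT). The separated library stood at 1.03 and the other two at 1.45.

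MED21, the partner of MED7 in the hinge, was closest to the median of all TSSs. Its TSS is at position 27022550 of chromosome 12 (plus strand), 8 bp before the MANE start. WT had 0.848 and TY-CFAP20 had 1.40, a difference of 0.550 at percentile 47.97. The difference was larger upstream, at 0.754 from -500 to 0 bp and 0.352 from 0 to 500 bp. Both densities were higher downstream, at 1.24 and then 1.56 in TY-CFAP20 and 0.483 and then 1.21 in WT. The TY-CFAP20 summit of 2.16 was at -140 bp. The separated library stood at 1.24 and the other two at 1.48.

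**Figure D3:**
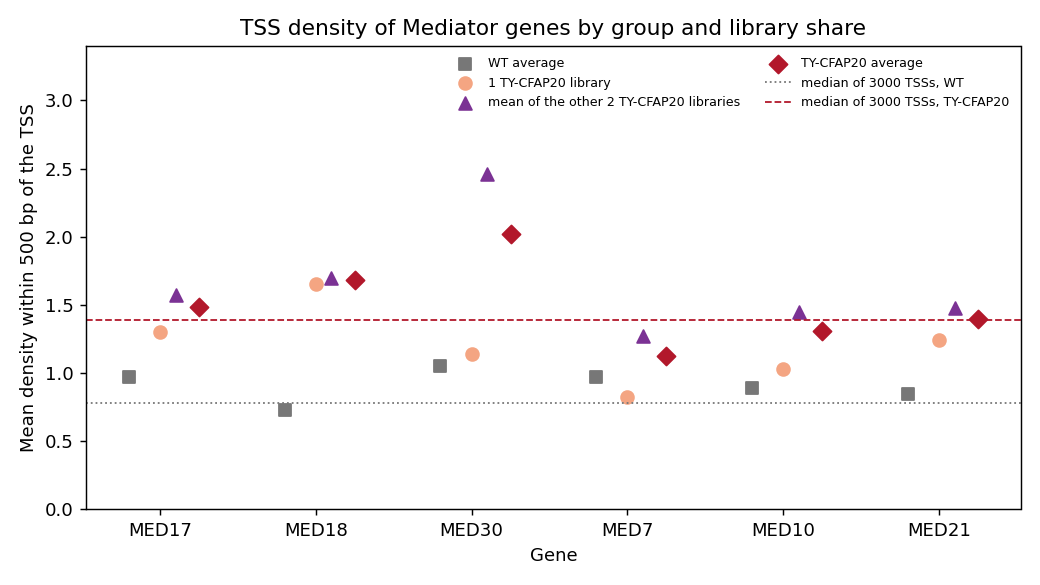
Mean density within 500 bp of the TSS (y axis) for each Mediator gene, as the WT average (square), the separated TY-CFAP20 library (circle), the mean of the other two (triangle) and the TY-CFAP20 average (diamond), with medians of 3000 TSSs as lines. The circle and the triangle nearly coincide at MED18 (1.66 and 1.69) and lie far apart at MED30 (1.14 and 2.46), and at MED7 the circle is below the WT square.

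By difference the order was MED30, MED18, MED21, MED17, MED10 and MED7. MED30 and MED18 were closer to each other than the library shares of MED30, and MED21, MED17 and MED10, at 0.550, 0.515 and 0.420, were closer than the shares within each of them, so these orders are not resolved. The last place of MED7 depended on the window. Centred on the MANE start, MED7 was above MED10 (0.445 against 0.436). Within 1000 bp it was above MED10 and MED21 (0.455 against 0.177 and 0.250), as in the 1000 bp downstream (0.481 against 0.291 and 0.0945). MED7 stayed last within 250 bp, with each flank scaling and in both library shares. In the separated library 5 of 6 members were above the WT average, against 79.1% of all TSSs, and MED7 was below it. In the other two, all 6 were above it, against 92.3%. The median difference of the 6 was 0.239 in the separated library and 0.617 in the other two. The head genes had differences from 0.515 to 0.973 and the middle genes from 0.152 to 0.550, ranges that overlap.

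Each member was also compared with its own surroundings, since the density of a single gene varies along the 10 kb in both groups. Against 8 adjoining windows of 1 kb on either side, the TSS difference was the highest at 4 of the 6 members, MED17, MED18, MED30 and MED21, and at 58.1% of all TSSs. At MED18 the 8 windows ranged from -0.146 to 0.207, well under the TSS difference of 0.955. MED30 had up to 0.527 off the TSS, from 2500 to 3500 bp, MED21 up to 0.424 and MED17 up to 0.332. At MED10 a window from 1500 to 2500 bp reached 0.425, just over its TSS difference of 0.420. At MED7 the window from 500 to 1500 bp reached 0.921, and 5 of the 8 windows were below the TSS window. Of the 6, MED18 stood furthest above its highest surrounding window, followed by MED30.

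WT background was above the median of all TSSs at 5 of 6 Mediator TSSs, all but MED18. This median was 0.782, and the highest WT density of the 6 was 1.05. MED17, MED7 and MED30 lay above the 75th percentile of all TSSs, 0.913, and MED21 and MED10 below it. Relative to its own flanks WT reached 1.86 times at MED7 and 1.47 times at MED17, against a median of 1.16, and MED7 was the only member where this ratio was higher in WT than in TY-CFAP20 (1.51). The flank ratio of TY-CFAP20 over WT was between 0.967 and 1.42 over the 6, with MED7 the highest. The part of these flank levels in the differences was not tested.

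The density tables hold the 3000 start sites with the highest BrU-seq level among 9944 listed. In gene bodies of WT cells, MED10 had 25.8 (rank 185), MED18 13.6 (373), MED21 12.8 (394), MED7 8.10 (618), MED17 5.57 (852) and MED30 0.835 (2774), in the authors' units and without replicates. The median of the 3000 was 2.55, so 5 of the 6 were above it and MED30 near the lower end. In the group averages the member with the lowest nascent RNA had the highest difference, and the member with the highest nascent RNA the second smallest. In the separated library this did not hold, since MED30 (0.0939) was there under MED18 (0.930), MED21 (0.392), MED17 (0.334) and MED10 (0.143). The Spearman correlation between BrU-seq and the difference was -0.31 over the 6 genes and 0.168 over all 3000, given as descriptions of these averages.

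MED27, another core subunit, is the only further gene among 33 Mediator and kinase module genes that the list of start sites holds here. Its BrU-seq level of 0.636 ranked 3074, just outside the density tables. The remaining Mediator genes are not analysed here.

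**Figure D4:**
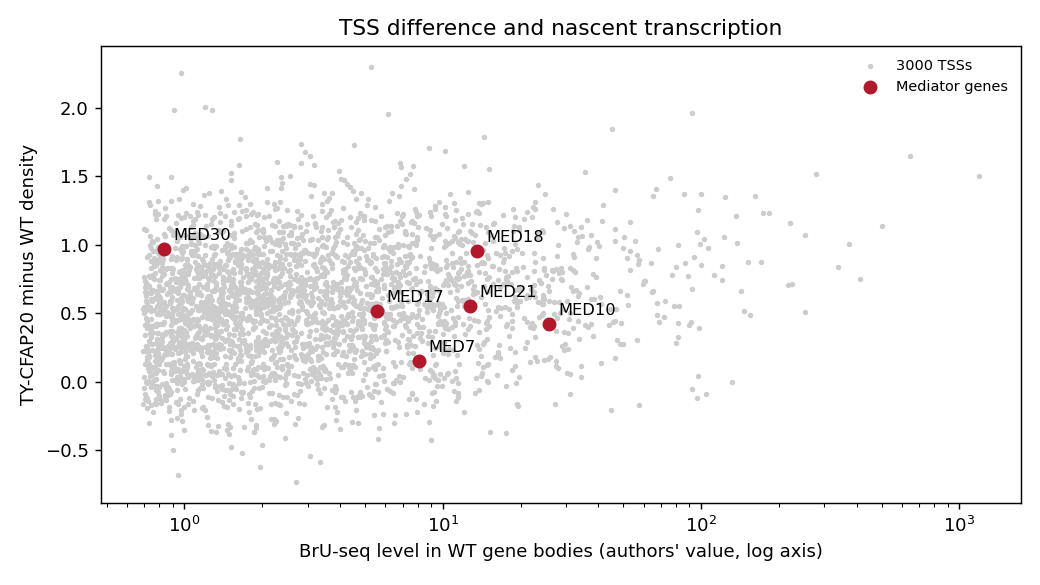
TY-CFAP20 minus WT density within 500 bp (y axis) against the BrU-seq level in WT gene bodies (x axis, log scale, authors' units) for 3000 TSSs in grey and the 6 Mediator genes in red. MED30 (0.835) lies at the left edge with the highest difference of the 6, and MED10 (25.8) furthest right with 0.420.

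DRIP, which pulls down RNA-DNA hybrids (R-loops), has a value at each TSS in the authors' table, in unstated units and for WT cells. It was 950.1 at MED10, 679 at MED7, 584 at MED18, 464 at MED17, 344 at MED21 and 218 at MED30, around a median of 528 over all TSSs. The order ran from MED10 (percentile 75.3) to MED30 (percentile 8.03), the same extremes as for BrU-seq. The Spearman correlation between DRIP and the difference was -0.77 over the 6 genes in the group averages. No such value is given here over all TSSs. In the separated library MED30, with the lowest DRIP, had a difference of 0.0939. That was under those of MED18 (0.930), MED21 (0.392), MED17 (0.334) and MED10 (0.143), and above that of MED7 only. BrU-seq and DRIP share their genes and were not taken from these libraries.

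Most of these genes are short. MED7, MED10, MED18 and MED21 were 5.77, 6.71, 6.93 and 7.20 kb long, MED30 19.55 kb and MED17 30.5 kb, against a median of 18.3 kb. None has a mapped replication origin close by. The nearest centres, from Okazaki fragment sequencing, lay 75.04 kb upstream of MED18, 83.8 kb downstream of MED30 and 166 kb upstream of MED21, and those of the other 3 genes were between 344 and 2463 kb away.

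The nearest TSSs in the density tables on the same chromosome gave a regional reference. MED18 (0.955) lay between SESN2, 69.5 kb away with 0.735, and YTHDF2, 408 kb away with 1.19. MED30 (0.973) lay between UTP23 (0.788) and EXT1 (0.406), and MED21 (0.550) between CMAS (0.496) and STK38L (0.429). MED17 (0.515), MED10 (0.420) and MED7 (0.152) were each below both of their neighbours: CTSC (0.986) and PANX1 (0.932), ICE1 (0.658) and PAPD7 (1.13), and MRPL22 (0.633) and NIPAL4 (0.502). Apart from SESN2, these neighbours lay between 222 and 5446 kb from their members.

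The shape of the difference also varied between members. Over 40 bins of 100 bp from -2000 to 2000 bp, Pearson's r between the profiles of 2 members ranged from -0.40 to 0.55 over the 15 pairs, with a median of 0.309. The TSS with the most similar profile among the 3000 was SGPL1 for MED30 (r = 0.844), TMEM126A for MED21 (0.825), GOLGA5 for MED18 (0.793), SAP30L for MED17 (0.748), CMTR2 for MED10 (0.733) and TRNP1 for MED7 (0.658). These correlations are across bins of averages that share their libraries, and the best of 2999 profiles is high by choice.

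The other genes of the transcription machinery are read against all TSSs, of which 91.2% were above WT and 34.9% at least 1.5-fold higher, with a median difference of 0.571. Of 43 genes of RNA polymerase II and the preinitiation complex, 8 were measured. All 8 were above WT and 3 were at least 1.5-fold higher, with a median difference of 0.657, from CCNH (1.111), the cyclin of the TFIIH kinase, to CDK7 (0.424), the kinase it pairs with. Of 24 genes of pausing and elongation, 5 were measured. All 5 were above WT and 1 was at least 1.5-fold higher, with a median of 0.574 and the highest value at CCNT1 (1.18), the cyclin of P-TEFb. The separated library and the other two gave medians of 0.338 and 0.735 for the first list and 0.501 and 0.362 for the second.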

How the data were processed

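ChIP-seq with the TY antibody covered 6 samples, 3 per group. Both the chromatin and the Drosophila spike-in added per reaction were larger for WT than for TY-CFAP20, per the labels' protocols. Tools listed without roles in the submitters' processing notes are R 4.0.5, HOMER 4.8.2, SAMtools 1.11, STAR 2.7.7a, Trim Galore 0.6.5 and BWA 0.7.17, with builds hg38 and BDGP6. The calculation of the spike-in factor was not given in the sources used here. As deposited by the authors, the read density signal has 1001 positions per TSS and is averaged per group, and BrU-seq and DRIP signal have a value per gene or TSS. Columns of unmatched samples numbered 0.

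Window means, differences, log2 ratios and ranks were computed from these signals with Python 3.11.15, numpy 2.4.6 and pandas 2.3.3, and plotted with matplotlib 3.10.9. The library split solves each value for the step of 0.0425, which is unique below 40 multiples. Members reached at most 21, but a count of 40 or more would also appear as a lower one. The split takes the average as a plain mean of 3 libraries. The calculations were tested on simulated data with independent counts at each position and a flat background. Folds in that simulation were taken with nothing added, so it does not check the fold calls on these data. Coordinates are 1-based hg38, with starts and exons from GENCODE release 44. Members, lists and alternatives were chosen with earlier results of these data known. Every member is named. The preinitiation and elongation lists are named by their highest and lowest difference, the lowest of the elongation list not being reported here. Neighbours and most similar profiles were named by rule. Promoters were taken for the highest and lowest difference among members with an entry outside chromosome 8. Those of MED10 and MED17 were added after the sequences were seen.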

Additional observations from a re-analysis of the deposited data

How the results depend on the processing

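No paired analysis was possible because the deposited values are group averages, and leaving out each replicate in turn was not run for the same reason. The separated library, the other two and the window on the MANE start were chosen after seeing the data. The median difference of 0.533 changed with the window, to 0.829 for 250 bp and 0.471 for 1000 bp on each side and to 0.493 for the 1000 bp downstream alone. It was 0.353 with TY-CFAP20 divided by the flank ratio of all TSSs, 0.456 with that of 11 neighbouring TSSs (local scaling), 0.495 with that of the TSS itself, 0.239 in the separated library, 0.617 in the other two, 0.545 on the MANE start and 0.594 as a mean. In the same order up to the MANE start, the summed ratio was 1.89, 1.497, 1.49, 1.45, 1.493, 1.53, 1.32, 1.82 and 1.70.

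The 6 members above WT became 5 with local scaling (87.6% of all TSSs), with own-flank scaling (84.3%) and in the separated library (79.1%). MED7 was then below WT, at -0.0354, -0.182 and -0.145. Of the other single-gene values, none changed sign in any of the 9 settings. The 2 members at 1.5-fold stood beside 34.9% of all TSSs, and both values changed with the setting. They were 3 within 250 bp (47.1% of all TSSs) and 0 within 1000 bp (14.2%). With flank scaling 1 passed (18.3%), with local scaling 1 (17.5%) and in the separated library 1 (13.9%). There were 3 with 0.25 times the added 0.668 (57.7%), 0 with 4 times it (0.2%) and 4 with nothing added (66.0%). At 2-fold and 3-fold there were 0, beside 1.77% and 0% of all TSSs. A larger pseudocount or threshold lowers this count by construction. The position of the largest mean difference, -0.07 kb, was -0.09 kb with medians, -0.06 kb with a running mean and 2.79 kb in the separated library, where it no longer lay at the TSS. The cause was not tested. Depth per library is unknown, so no counting error is given for single genes.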
